A study of Oryza sativa with 16 samples.

Results

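The genes of 5 enzymes that make or use the small nitrogen compounds behind rice scent were followed in leaf RNA: the pyrroline-carboxylate synthases P5CS1 (LOC4338979, chromosome 5) and P5CS2 (LOC4324853, chromosome 1), ornithine aminotransferase OAT (LOC4333554, chromosome 3), arginase ARG1 (LOC4334912, chromosome 4) and arginine decarboxylase ADC1 (LOC4340008, chromosome 6). They were chosen by name, as every probe set that the platform annotation gives to these loci. This gave 10 of 57194 probe sets and 5 of 17905 annotated genes: 4 probe sets for P5CS2, 2 each for OAT and ADC1, and 1 each for P5CS1 and ARG1. RNA came from healthy leaves of untreated, field-grown Oryza sativa, taken 25 days after seedlings were transplanted, and was hybridised to 16 Affymetrix rice arrays. The aromatic parent was the basmati variety Pusa 1121 and the non-aromatic parent the variety Pusa 1342. The aromatic bulk was a pool of 6 strongly scented recombinant inbred lines of their cross, and the non-aromatic bulk a pool of 6 unscented ones. Each of the 4 groups had 4 arrays. A bulk value is the level of a pool, so it does not show how the lines in the pool vary. The labels call the arrays biological replicates but do not say that they came from separate plants or pools, so each p-value reflects array-to-array spread, part or all of which may be technical.

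The scent of basmati rice is 2-acetyl-1-pyrroline, whose nitrogen-bearing ring derives from pyrroline compounds that plants make from glutamate, ornithine and arginine. P5CS enzymes turn glutamate into pyrroline-5-carboxylate, the last intermediate before proline, and OAT makes the same intermediate from ornithine. Arginase splits arginine into ornithine and urea, while arginine decarboxylase directs arginine to agmatine and the polyamine putrescine. Oxidation of putrescine gives an aminoaldehyde that closes to pyrroline, and the betaine aldehyde dehydrogenase BADH2 removes that aldehyde. Loss of BADH2 function is the known main source of fragrance in rice.

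The arrays shared 1 median, an intensity of 64.2, and 8 of the 10 probe sets lay above it in their mean over all arrays. Residual SDs (log2) had a median of 0.194 among brighter and 1.09 among dimmer probe sets. Of 5 measured leaf markers, RBCS, RCA, CAB2R and FBP1 were bright, at group means from 4805 to 44835, and RBCS1 was below the array median. Of 5 root markers 3 were below that median, and of 7 seed markers 3 were. The summed intensity of 13 floral and meristem markers was 4908 to 5234 in the aromatic bulk and 5213 to 5800 in the aromatic parent, against 15088 to 17073 in the non-aromatic bulk and 13794 to 14908 in the non-aromatic parent. That of 6 senescence markers was 6532 to 7243 and 6708 to 8277 on the aromatic sides, against 10248 to 11354 in the non-aromatic bulk and 9018 to 10219 in the non-aromatic parent. Few genes carried these gaps: 4 of 13 floral markers were lower in each pair and 9 did not pass. Among all genes 16.3% were lower in the bulks and 22.8% in the parents. MADS14, MADS16 and MADS18 were lower in both pairs, MADS15 in the bulks only and MADS1 in the parents only. MADS14 alone was at 252 against 8141 in the bulks and 375 against 4125 in the parents. Of the senescence markers 3 of 6 were lower in each pair (SGR, ICL and MS), while NYC1 was higher in the aromatic parent (log2 0.53, limma adjusted p = 0.000991). Their part in the results that follow was not tested. In such tissue RNA, fewer cells of a type and less RNA per cell cannot be told apart.

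Scented and unscented material was compared between the bulks and between the parents. The group means of these pairs have no array in common, but their p-values share the residual spread of 1 fit over all 16 arrays. In the bulks P5CS1 and ADC1 were higher and ARG1 was lower on the aromatic side. In the parents P5CS1, OAT and, through 1 of its 4 probe sets, P5CS2 were lower on the aromatic side, and ADC1 was higher. ADC1 was thus the gene of the 5 called in the same direction in both pairs, through 1 of its 2 probe sets, and P5CS1 was called in opposite directions. At a limma adjusted p under 0.05, 3 of 10 probe sets were called in the bulks (2 higher, 1 lower), where 18.6% of all probe sets were. In the parents 5 of 10 passed (1 higher, 4 lower), against 25.8% of all. The median size of the log2 difference, whatever its sign, was 0.318 in the bulks and 0.548 in the parents for the 10 probe sets, and 0.442 and 0.506 for all probe sets. Values over all probe sets, here and below, are not a like baseline for the 10. Of these, 8 lay above the array median, and brighter probe sets had less residual spread (median SD 0.194 against 1.09). With only brighter probe sets fitted, more were called in each pair than among all, out of fewer tested. Whether the 10 changed more often than equally bright probe sets was not tested.

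**Figure D1:**
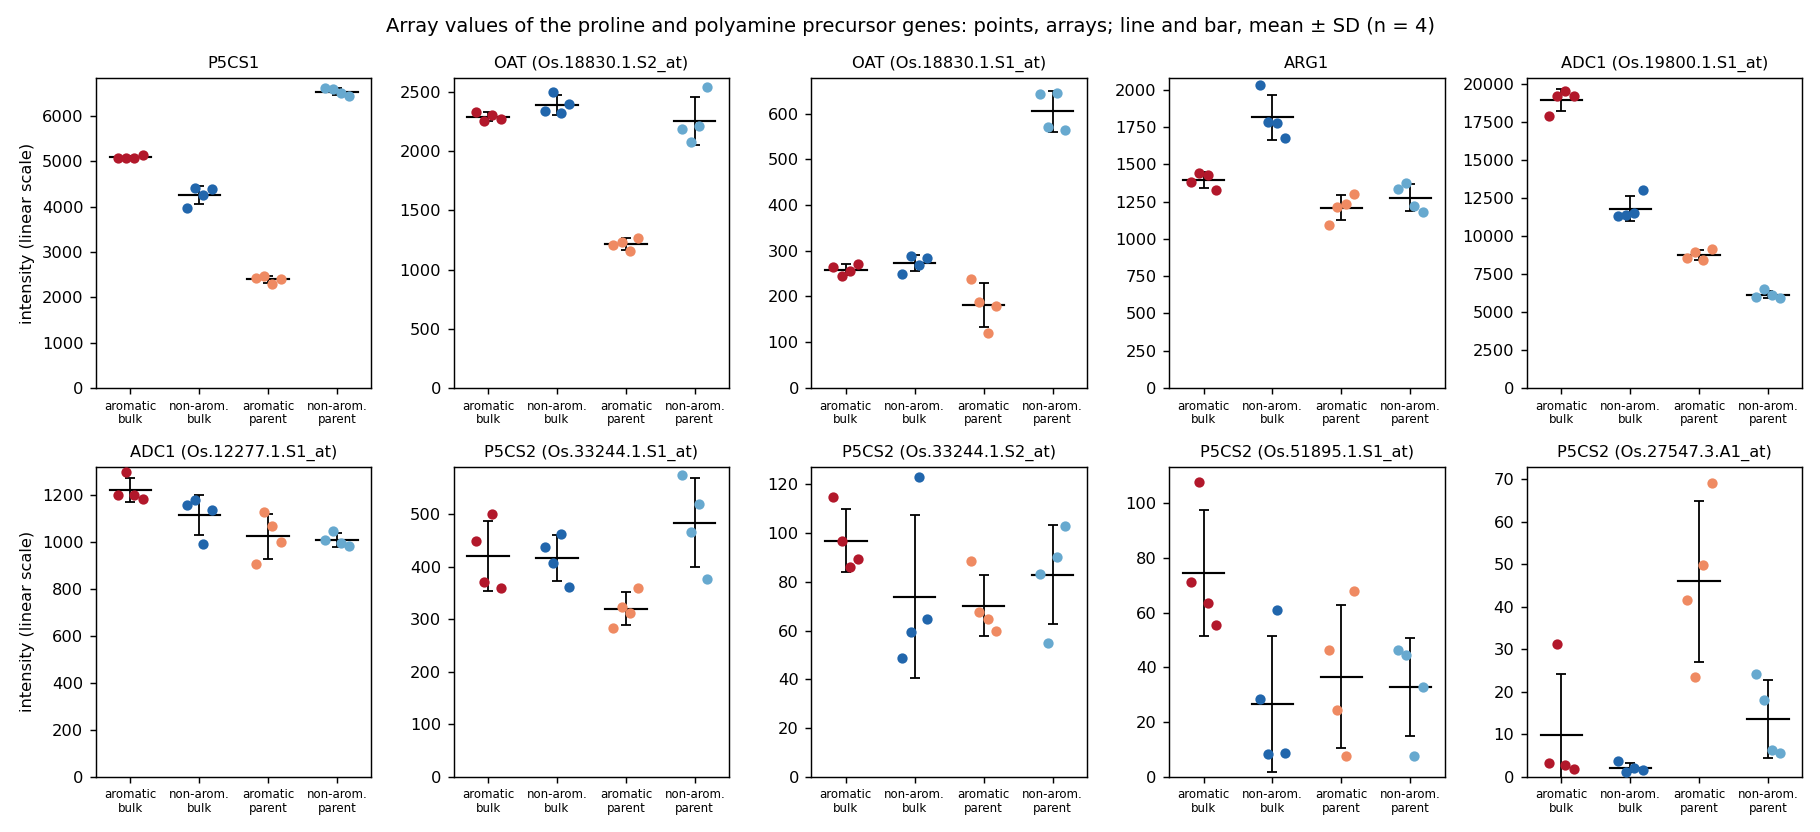
Intensity (linear scale, from 0) of each of the 10 probe sets on each of the 16 arrays, 1 point per array, with the mean and SD of each group of 4. P5CS1 separates all 4 groups, the OAT probe sets place the bulks differently, ADC1 (Os.19800.1.S1_at) falls stepwise from the aromatic bulk to the non-aromatic parent, and the dim P5CS2 probe sets scatter widely.

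P5CS1 makes pyrroline-5-carboxylate from glutamate and was read by 1 probe set. Its arrays gave 2426, 2477, 2285 and 2402 in the aromatic parent and 6609, 6585, 6512 and 6441 in the non-aromatic parent. The aromatic bulk gave 5076, 5079, 5063 and 5129, and the non-aromatic bulk 3980, 4411, 4254 and 4391. No 2 groups overlapped, and the order ran from the non-aromatic parent through the aromatic bulk and the non-aromatic bulk to the aromatic parent, with each neighbouring step past the threshold in limma (log2 steps of 0.36, 0.26 and 0.83, adjusted p = 0.000613, 0.0103 and 2.31e-07). The aromatic variety therefore had the lowest level, while the pool of aromatic lines was above the pool of non-aromatic lines. The step between the bulks no longer passed when the bulk arrays were fitted without the parents (log2 0.26, adjusted p = 0.078), and passed in the other 22 alternatives. The parental difference minus the bulk difference was -1.70 (SE 0.0889, limma adjusted p = 1.39e-08), a test that the differences are unequal. That their signs are opposite rests on the step between the bulks. On the log2 interval from the aromatic parent (0%) to the non-aromatic parent (100%), the 4 arrays of the aromatic bulk lay between 74.5% and 75.8%, and those of the non-aromatic bulk between 50.6% and 60.8%.

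P5CS2, another synthase for the same step, was dimmer. Its brightest probe set, Os.33244.1.S1_at, had 284, 324, 311 and 360 in the aromatic parent and 575, 466, 519 and 376 in the non-aromatic parent. These ranges came close without touching, and the aromatic parent was lower by a log2 difference of -0.58 (SE 0.148, limma adjusted p = 0.00864). With the 4 probe sets averaged before the fit, the gene's parental difference was 0.27 and did not pass (adjusted p = 0.525). The aromatic bulk had 448, 370, 500 and 360 and the non-aromatic bulk 437, 406, 463 and 361, with ranges that overlapped almost fully. The bulk difference was 0.00, with a 95% interval from -0.32 to 0.32 on the log2 scale, so a difference as large as that between the parents lay outside it. Even so, the parental difference minus the bulk difference did not pass (-0.59, limma adjusted p = 0.0691, from 0.0224 to 0.134 over 22 alternatives). It passed in 3 of these alternatives. Leaving out replicate 4 of the non-aromatic parent gave -0.70 and a limma adjusted p = 0.0224. With all arrays kept, the value of -0.59 passed with only brighter probe sets fitted (adjusted p = 0.0251) and with a trended and robust prior (adjusted p = 0.0365).

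The 3 other P5CS2 probe sets did not follow the brightest one. Across the 16 arrays their correlation with it on the log2 scale was 0.16, 0.12 and -0.37, given as a description of arrays that share groups. Os.33244.1.S2_at ranged from 48.8 to 123 over all arrays, and no contrast between groups passed. Os.51895.1.S1_at had 71.1, 108, 63.4 and 55.6 in the aromatic bulk and 28.5, 8.29, 61.0 and 8.49 in the non-aromatic bulk, with overlapping ranges and a log2 difference of 1.87 that did not pass (limma adjusted p = 0.117). For both of these, leaving out replicate 3 of the non-aromatic bulk, where they read 123 and 61.0, brought the bulk difference past the threshold (log2 0.74 and 2.41, adjusted p = 0.0262 and 0.045).

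The dimmest P5CS2 probe set, Os.27547.3.A1_at, comes from another sequence cluster of the array design. It had 41.5, 23.4, 49.7 and 69.1 in the aromatic parent and 24.1, 18.1, 6.15 and 5.58 in the non-aromatic parent. In the bulks it was at most 3.68 on every array but 1, replicate 2 of the aromatic bulk, which read 31.3. The mean of the bulks was lower than that of the parents by a log2 difference of -2.45 (limma adjusted p = 0.00209, up to 0.00594 over 21 alternatives). All but 1 of these values lie below the array median, and the size of this difference depends on the pseudocount and was smaller with a pseudocount of 16. The parents did not differ past the threshold (log2 1.84, adjusted p = 0.0739), but did when that bulk array was left out of the fit (adjusted p = 0.00906), with the same parental values.

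**Figure D2:**
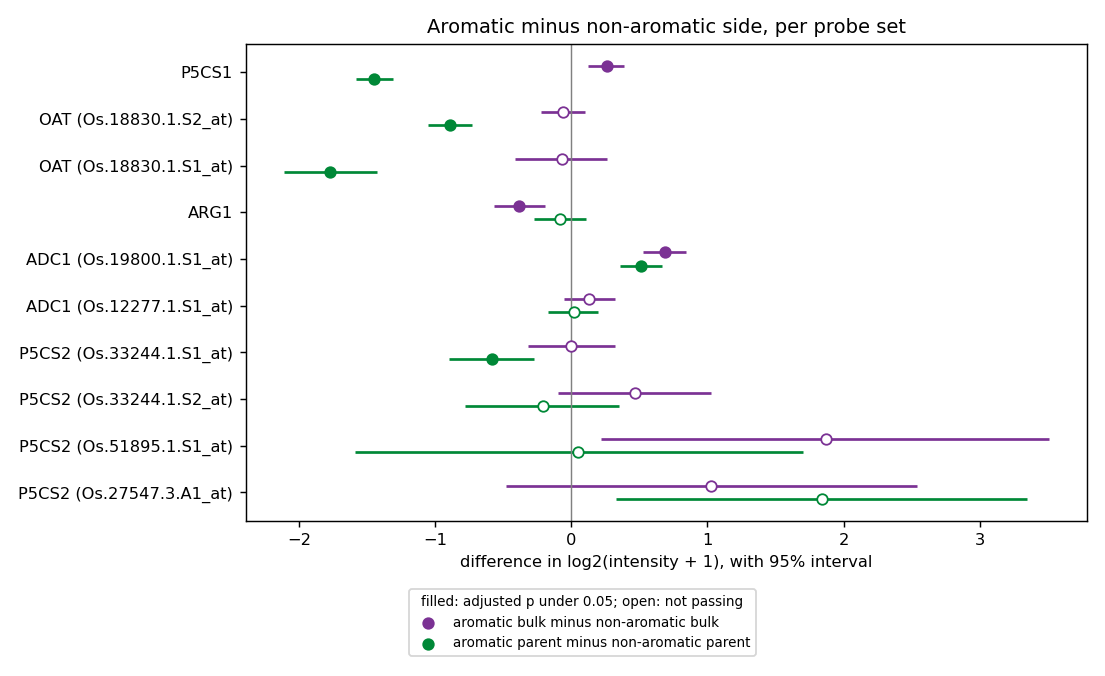
Aromatic minus non-aromatic difference in log2(intensity + 1) for each probe set, in the bulks and in the parents, with 95% intervals from the limma fit; filled points passed an adjusted p under 0.05. P5CS1 has a bulk difference of 0.26 and a parental one of -1.45, while ADC1 (Os.19800.1.S1_at) lies at 0.69 and 0.51.

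OAT supplies pyrroline-5-carboxylate from ornithine, and its 2 probe sets gave the same parental direction but placed the bulks differently. The brighter one, Os.18830.1.S2_at, had 1205, 1233, 1155 and 1270 in the aromatic parent and 2190, 2078, 2217 and 2547 in the non-aromatic parent. The aromatic bulk, at 2334, 2255, 2310 and 2273, and the non-aromatic bulk, at 2343, 2506, 2324 and 2400, overlapped with the non-aromatic parent and lay wholly above the aromatic parent. The top 3 levels did not differ past the threshold (limma adjusted p = 0.669 and 0.865 for the neighbouring steps), and the aromatic parent was below the next by 0.89 log2 units (adjusted p = 5.27e-07). The aromatic bulk was above its own scented parent by a log2 difference of 0.92 (SE 0.0748, adjusted p = 9.09e-07).

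The other OAT probe set, Os.18830.1.S1_at, set the non-aromatic parent apart instead. That parent had 643, 570, 646 and 564, against 265, 244, 256 and 270 in the aromatic bulk and 250, 289, 268 and 284 in the non-aromatic bulk. The aromatic parent was lowest, at 238, 189, 121 and 179. The bulks fell short of the non-aromatic parent by log2 differences of -1.22 and -1.15 (limma adjusted p = 4.35e-05 and 8.64e-05). The aromatic bulk was above the aromatic parent by 0.55 (adjusted p = 0.0253), a step that did not pass with only those 2 groups fitted (adjusted p = 0.127), nor without replicate 1, 3 or 4 of the aromatic bulk or replicate 4 of the aromatic parent (adjusted p from 0.0506 to 0.0621). On the parental interval the bulk means stood at 30.9% and 35.1% by this probe set, but at 103% and 110% by the brighter one. The bulks did not differ by either probe set, with 95% intervals from -0.22 to 0.10 for the brighter and from -0.41 to 0.26 for the other. The parental difference minus the bulk difference was -0.83 for the brighter and -1.69 for the other (adjusted p = 6.09e-05 and 7.54e-05). With P5CS1 these were the 3 of 10 probe sets in which the parental and the bulk difference were unequal past the threshold. The share was 19.4% of all probe sets, the noisier dim ones included.

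**Figure D3:**
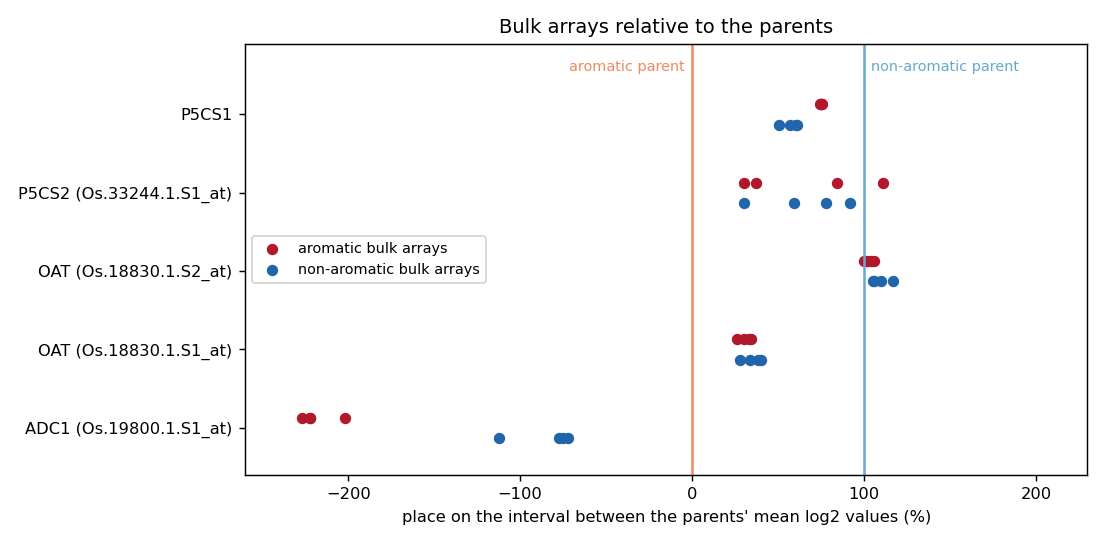
Each bulk array placed on the log2 interval between the mean of the aromatic parent (0%) and that of the non-aromatic parent (100%), for the 5 probe sets whose parents differed past the threshold. P5CS1 lies inside the interval, the brighter OAT probe set at its non-aromatic end (means of 103% and 110%), and ADC1 beyond its aromatic end (means of -218% and -84%).

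ARG1 makes ornithine from arginine and was the gene of the 5 whose level was called lower in the aromatic bulk. The aromatic bulk had 1380, 1445, 1427 and 1329 and the non-aromatic bulk 2031, 1786, 1779 and 1675, with no overlap (log2 difference -0.38, SE 0.0864, limma adjusted p = 0.00668). The parents overlapped, at 1095, 1213, 1232 and 1301 (aromatic) against 1337, 1373, 1222 and 1180 (non-aromatic), and their difference of -0.08 had a 95% interval from -0.27 to 0.11. The non-aromatic bulk stood above all other groups, by 0.51 over its own parent (adjusted p = 0.00056), while the aromatic bulk and both parents did not differ in neighbouring steps (adjusted p = 0.355 and 0.605). The aromatic bulk still lay wholly above the aromatic parent, by 0.21 with a 95% interval from 0.02 to 0.39. That difference did not pass (limma adjusted p = 0.13), but did in 2 of 23 alternatives. Whether the bulk and the parental differences were unequal did not pass (0.30, adjusted p = 0.116, from 0.0273 to 0.208 over 22 alternatives).

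ADC1 starts the route from arginine to putrescine. Its brighter probe set, Os.19800.1.S1_at, had 17882, 19169, 19502 and 19169 in the aromatic bulk and 11287, 11385, 11482 and 12987 in the non-aromatic bulk. The aromatic parent had 8504, 8950, 8398 and 9097 and the non-aromatic parent 5979, 6490, 6105 and 5939. No 2 groups overlapped, the aromatic member of each pair was the higher one, and both pools stood above both parents. Each neighbouring step passed in limma, with log2 steps of 0.69 (adjusted p = 1.36e-05), 0.43 (adjusted p = 0.000434) and 0.51 (adjusted p = 8.5e-05). The aromatic excess in the parents and in the bulks did not differ past the threshold (-0.17, 95% interval from -0.39 to 0.05, adjusted p = 0.308, from 0.0404 to 0.443 over 22 alternatives). The mean of the bulks exceeded that of the parents by 1.03 (SE 0.0512, adjusted p = 5.82e-09).

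The other ADC1 probe set, Os.12277.1.S1_at, varied much less. It had 1201, 1299, 1201 and 1185 in the aromatic bulk, 1158, 1179, 992 and 1135 in the non-aromatic bulk, 905, 1127, 1067 and 999 in the aromatic parent and 1007, 1048, 996 and 983 in the non-aromatic parent. The order of the means was the same as for the brighter probe set, but no neighbouring step passed (limma adjusted p = 0.352, 0.342 and 0.922) and the bulk difference of 0.13 had a 95% interval from -0.05 to 0.32, below the 0.69 of the brighter one. The bulks exceeded the parents by 0.20 (adjusted p = 0.0264). That call was lost without replicate 2 of the aromatic bulk, replicate 1 or 2 of the non-aromatic bulk, replicate 1 of the aromatic parent or replicate 4 of the non-aromatic parent (adjusted p from 0.0508 to 0.0557). Across the 16 arrays the 2 ADC1 probe sets correlated at 0.78 and the 2 OAT probe sets at 0.59 on the log2 scale.

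Lines of a cross can also be set against the parents directly. These comparisons use the arrays already described, so they are not separate evidence. The aromatic bulk differed from the aromatic parent in 5 of 10 probe sets, where 18.6% of all probe sets did: P5CS1 (log2 1.09), both OAT probe sets and the brighter ADC1 probe set (log2 1.12) were higher, and the dimmest P5CS2 probe set was lower (log2 -2.85). With only those 2 groups fitted, this last call and that of OAT Os.18830.1.S1_at were lost (limma adjusted p = 0.0567 and 0.127), and with a pseudocount of 16 the P5CS2 value was -1.35. The non-aromatic bulk differed from the non-aromatic parent in 5 of 10, against 23.6% of all. ADC1 (log2 0.94) and ARG1 were higher there, whereas P5CS1 (log2 -0.62), OAT by Os.18830.1.S1_at (log2 -1.15) and the dimmest P5CS2 probe set (log2 -2.05) were lower. The last of these sat at the threshold (limma adjusted p = 0.0497) and passed in 7 of 22 alternatives. The mean of the bulks differed from the mean of the parents in 6 of 10 probe sets, 5 of them higher, against 24.0% of all. In each of these comparisons the share of all probe sets includes the noisier dim ones.

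The surrounding pathway was read from lists of proline, arginine, polyamine, glutamate and aldehyde genes, matched by symbol, each gene through its brightest probe set. Measured genes numbered 2 from 26 proline and arginine symbols, 6 from 41 polyamine symbols and 1 from 13 proline transport symbols. Genes that no symbol matched were not read, so the lists cover only part of the pathway. In the bulks 5 of 26 measured genes were higher and 6 lower on the aromatic side, with 15 not passing. Over all genes 16.5% were higher and 16.3% lower. In the parents 4 were higher and 7 lower, with 15 not passing, against 22.4% and 22.8% of all genes. The median log2 difference of the 26 genes was 0.04 in the bulks and -0.13 in the parents, with -0.01 for all genes in both.

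Of 6 further polyamine genes, 3 were higher and 1 lower in the aromatic bulk, and 0 were higher and 1 lower in the aromatic parent. The shares of all genes (higher, then lower) were 16.5% and 16.3% in the bulks and 22.4% and 22.8% in the parents. Whether the 6 genes depart from them was not tested. CPA, the amidohydrolase that completes putrescine synthesis from arginine, had 4764 ± 205 against 3708 ± 82.0 in the bulks (SD, n = 4 each, log2 0.36, limma adjusted p = 0.00405). SAMDC, whose product donates the aminopropyl group of the larger polyamines, was higher by 0.26 (adjusted p = 0.00953), and by 1.49 through its other probe set (adjusted p = 0.00545). The S-adenosylmethionine synthetases moved in opposite directions in the bulks, SAMS2 by 0.46 (adjusted p = 0.00018) and SAM1 by -0.44 (adjusted p = 0.000148). The other SAMS2 probe set had -1.86 without passing (adjusted p = 0.0907). SAM1 was also lower in the aromatic parent, by -0.30 (adjusted p = 0.00211). In the parents CPA had log2 0.21, SAMDC -0.09 and SAMS2 -0.13, none passing. ADC2, another arginine decarboxylase gene, was dim, at group means from 42.6 to 95, and did not pass in either pair. It lies on chromosome 4 with 5 annotated genes between it and ARG1.

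ProT, the 1 measured gene that the 13 proline transport symbols matched, went against OAT in the parents. On chromosome 3, 5 annotated genes lie between them. ProT had 2561, 2643, 2640 and 2562 in the aromatic bulk and 1558, 1660, 1590 and 1558 in the non-aromatic bulk. The aromatic parent had 4632, 4560, 4499 and 4812 and the non-aromatic parent 1908, 1834, 1820 and 1784. Both aromatic groups lay wholly above both non-aromatic ones, by a log2 difference of 0.71 in the bulks and 1.33 in the parents (limma adjusted p = 2.26e-06 and 1.25e-09), and the parental difference was the larger by 0.62 (adjusted p = 0.000134).

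In the glutamate and GABA branch 1 of 11 genes was higher and 3 were lower in the aromatic bulk, and 3 were higher and 1 lower in the aromatic parent. Over all genes 16.5% were higher and 16.3% lower in the bulks, and 22.4% and 22.8% in the parents. Whether the 11 genes depart from this was not tested. GLT2, a glutamate synthase that makes the substrate of P5CS, had 1454 ± 29.6 against 723 ± 44.9 in the bulks and 3133 ± 128 against 624 ± 11.8 in the parents (SD, n = 4 each). Its aromatic excess was 1.01 and 2.32 on the log2 scale (limma adjusted p = 2.2e-07 and 1.59e-11). GLN1-1, a cytosolic glutamine synthetase, was lower on both aromatic sides, by -0.57 and -0.47 (adjusted p = 2.33e-05 and 6.27e-05). GDH1, glutamate dehydrogenase, was lower in the aromatic bulk (log2 -0.64, adjusted p = 0.000244), and SSADH1, succinic semialdehyde dehydrogenase of the GABA route, was higher in the aromatic parent (log2 0.70, adjusted p = 2.01e-05). Genes counted as not passing had other probe sets that did. One of GS2, the chloroplast glutamine synthetase, had 0.45 in the bulks and -0.57 in the parents (adjusted p = 0.00305 and 0.000262). Those of Fd-GOGAT, the ferredoxin-dependent glutamate synthase, disagreed in the bulks, with -0.52 and 0.43 (adjusted p = 0.000136 and 0.000145), and both were lower in the aromatic parent, with -1.01 and -0.17 (adjusted p = 8.22e-08 and 0.0484). Of 2 further arginine genes, the carbamoyl phosphate synthase gene CARB (also listed as CPS) was lower in the aromatic parent, at 2800 ± 85.8 against 3989 ± 108 (log2 -0.51, adjusted p = 4.89e-05), and CARA, its partner subunit, had -0.17 without passing. In the bulks neither passed, with 0.10 and 0.03.

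On the aldehyde side 0 of 6 genes were higher in either pair, 2 were lower in the aromatic bulk and 4 in the aromatic parent. Among all genes 16.5% were higher and 16.3% lower in the bulks, and 22.4% and 22.8% in the parents. Whether the 6 genes depart from these shares was not tested. BADH2 had 417, 351, 326 and 386 in the aromatic bulk and 322, 288, 375 and 410 in the aromatic parent, which overlapped, against 809, 683, 687 and 751 in the non-aromatic bulk and 2236, 2234, 2218 and 2243 in the non-aromatic parent. Its difference had the same sign in both pairs (log2 -0.99 and -2.69, limma adjusted p = 3.23e-05 and 5.93e-10), unlike P5CS1. Its paralog BADH1 had -0.19 in the bulks (adjusted p = 0.336) and -1.19 in the parents (adjusted p = 2.33e-06). GAPC3, a cytosolic glyceraldehyde-phosphate dehydrogenase, was lower by -0.71 and -1.08 (adjusted p = 1.27e-05 and 7.34e-08), and GAPC1 was lower in the aromatic parent by -0.30 (adjusted p = 0.00152) and had -0.05 in the bulks without passing. The count of 0 higher genes holds for the brightest probe sets: another probe set of TPI, triosephosphate isomerase, was higher in the aromatic bulk (log2 0.56, adjusted p = 0.000201) and lower in the aromatic parent (log2 -1.83, adjusted p = 7.93e-10).

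**Figure D4:**
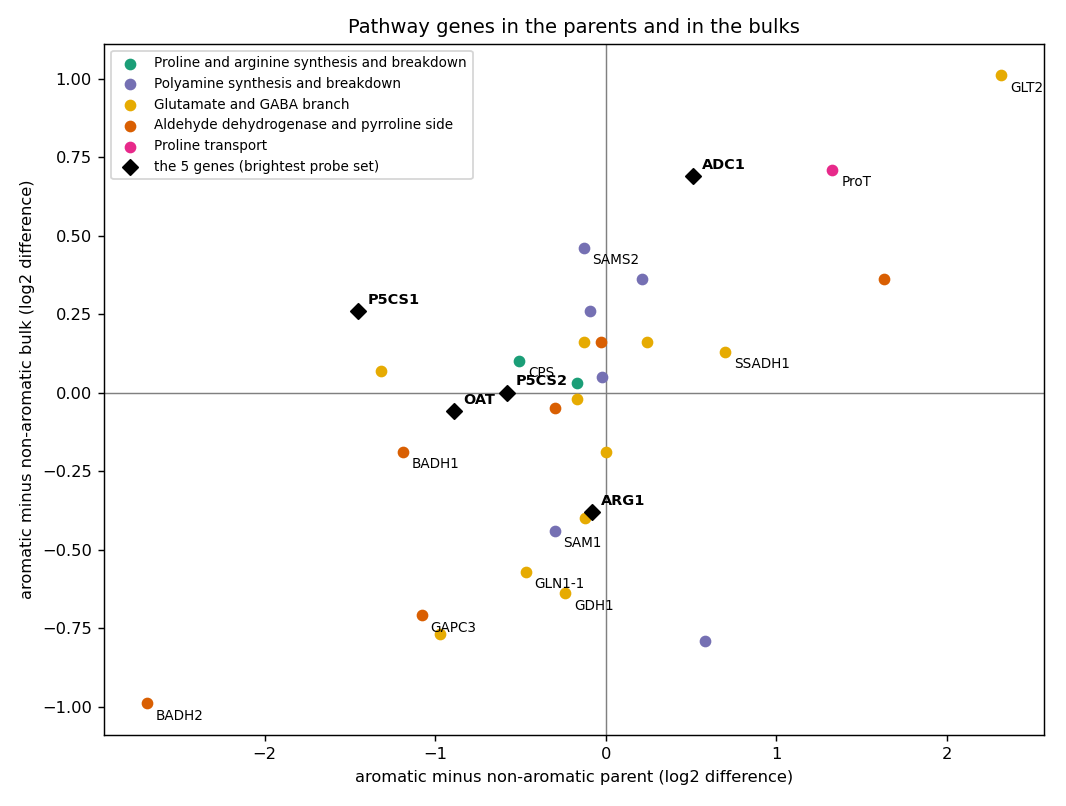
Log2 difference between the aromatic and the non-aromatic bulk (vertical) against that between the parents (horizontal) for 26 pathway genes, coloured by list, and for the 5 genes studied here (black). ADC1, ProT and GLT2 lie in the upper right, BADH2 and GAPC3 in the lower left, and P5CS1 in the upper left at 0.26 against -1.45.

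Among 1996 other genes with a published name and a mean above the array median, those whose pattern over the 16 arrays was most like P5CS1 were the metallothionein gene MT1B (Pearson r = 0.992 on the log2 scale), the beta-glucosidase family gene BGLU31 (r = 0.985) and OsC3H2 (r = 0.984). MT1B had 745 ± 61.5 against 2926 ± 198 in the parents (aromatic first), with 1946 ± 73.2 and 1682 ± 33.6 in the aromatic and the non-aromatic bulk (SD, n = 4 each). OAT was followed most closely by DJA6, MTP5 and NLP3 (r = 0.985, 0.982 and 0.981), and ADC1 by the chitinase family gene Cht11, the cytochrome P450 gene CYP734A4 and NSF (r = 0.978, 0.976 and 0.975). For ARG1 the nearest were the 4-coumarate CoA ligase gene 4CL5, Rcb4 and PP2C68 (r = 0.937, 0.928 and 0.920). For P5CS2 they were OsC3H6, NEK6 and ARF24, with lower values (r = 0.873, 0.846 and 0.837). Its SDs within groups ran from 0.142 to 0.262 on the log2 scale, against at most 0.117 for ARG1. These correlations describe 16 arrays in 4 groups, and the arrays of a group share its level.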

How the data were processed

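Leaf RNA of 16 samples was measured on the Affymetrix rice array. The deposited table gives an intensity for each probe set in each sample, unlogged and between 0.201 and 45122.9. GCOS 1.2 and RMA are named, without role or order, in the submitters' processing notes. Every array had the same median (64.2), so the arrays had been brought to a common level before deposit. A shift common to all genes would therefore not be seen. The upper quartile, 434, was read from the first array only. Of 57381 probe sets, 187 controls were left out. Names came from the platform annotation and the RefSeq gene table of assembly ASM3414082v1, used for names, chromosome and gene order only. Symbols matching 7 other genes were removed from the lists.

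Groups came from the labels. Values were transformed as log2(intensity + 1) and limma 3.58.1 (R 4.3.3) was applied, with 4 group means in 1 fit and 12 residual degrees of freedom. P-values are two-sided and were adjusted by Benjamini-Hochberg across the 57194 probe sets. The steps were tested on simulated data. The members and lists were chosen with earlier results of these data known. Named pathway genes were up to 4 per list with the lowest adjusted p, and the most alike genes were the 3 with the highest r. Alternatives were a pseudocount of 16, brighter probe sets, compared arrays alone, other scalings, a trended prior, averaged probe sets, a replicate block and each array left out. Probe sequences were not used here.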

Additional observations from a re-analysis of the deposited data

Results flagged for a closer look

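The parental and the bulk difference were unequal, by limma's test of the difference between them, in P5CS1 (-1.70) and in both OAT probe sets (-0.83 for Os.18830.1.S2_at and -1.69 for Os.18830.1.S1_at). In P5CS1 the 2 differences had opposite signs, which rests on the bulk difference of 0.26. That difference did not pass with the bulk arrays fitted alone (limma adjusted p = 0.078).

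In 3 of 40 groups of 4 arrays, 1 array lay far from the other 3, where chance gives about 1 in 20. In the brighter ADC1 probe set, replicate 4 of the non-aromatic bulk read 12987. In the other ADC1 probe set, replicate 2 of the aromatic bulk read 1299. In the P5CS2 probe set Os.27547.3.A1_at, the same array read 31.3.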

How the results depend on the processing

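Of the 24 alternatives, up to 23 applied to a single probe set, and averaging probe sets gave gene values instead. The values of single probe sets were thereby recomputed 1348 times. Of these, 27 no longer passed, 23 newly passed and 10 changed sign, with neither value passing in any sign change. The sign changes came from leaving out single arrays: the bulk difference of P5CS2 Os.33244.1.S1_at ranged from -0.08 to 0.07, the parental differences of P5CS2 Os.51895.1.S1_at and ADC1 Os.12277.1.S1_at from -0.52 to 0.63 and from -0.03 to 0.08, and the bulks-minus-parents difference of P5CS2 Os.33244.1.S2_at from -0.01 to 0.21. With 1 array left out, 3 to 5 of the 10 probe sets were called between the bulks, 5 without replicate 3 of the non-aromatic bulk. The test of unequal parental and bulk differences called 5 with brighter probe sets and 6 with a trended and robust prior, against 3. The aromatic bulk minus its parent called 3 with those arrays fitted alone, against 5, without OAT Os.18830.1.S1_at and P5CS2 Os.27547.3.A1_at. The causes were not tested. The counts over all probe sets stayed within 1.5 times.

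The replicate number is shared by the groups. Same-numbered arrays deviated together at most weakly (24 pairs, r from -0.007 to 0.014, median 0.002). The median was -0.001 in 72 pairs of other numbers. Still, 10 of 16 arrays correlated best with their own number, where 1 in 4 would be the rate by chance. The 16 matches are not separate trials, since each correlation serves both of its arrays, and this count was not tested. With the number as a replicate block, 3, 5, 3, 5, 4 and 6 of the 10 probe sets were called in the bulk, parental, unequal-difference, aromatic, non-aromatic and bulks-minus-parents comparisons. The call lost was P5CS2 Os.27547.3.A1_at in the non-aromatic bulk against its parent (limma adjusted p = 0.0743). Over all probe sets 9636, 14040, 10147, 9715, 12708 and 12927 were called.

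With 4 arrays a group, differences in dim probe sets had wide intervals, so the 3 dimmer P5CS2 probe sets limit what can be said of that gene. Probe sets of 1 gene disagreed in size for OAT, ADC1 and P5CS2. They also disagreed in direction, with 0.38 and -2.85 in P5CS2 for the aromatic bulk against its parent, and 0.50 and -0.30 in OAT for the bulks against the parents, where the first and the last of these 4 values did not pass. With probe sets averaged, 3 of 5 genes were called between the parents against 4, the gene lost being P5CS2, and OAT no longer passed for the bulks against the parents (0.10, limma adjusted p = 0.202).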
